A study of Mus musculus with 9 samples.

Results

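The genes described here are 36 genes of the G2 phase and of mitosis, chosen by symbol, out of 52264 rows of a table of RNA sequencing read counts. All 36 had 1 row each, and all 36 passed the filter on low counts, after which 15366 rows were tested. The table holds 9 libraries from mouse embryonic stem cells labelled as β-catenin-/-, 3 libraries in each of 3 groups: untreated control, BRD0705, and CHIR. Every group shares the deletion in the label, the growth history and the culture medium: the cells were expanded on feeder-treated dishes with LIF at 40 ng/ml, CHIR-99021 at 3 µM and PD03, a MEK inhibitor, at 1 µM, kept in N2B27 medium overnight, and then treated for 30 min. The controls had therefore also met CHIR during expansion, and the doses of the 30 min treatment are not given in the labels. BRD0705 is known as an inhibitor selective for GSK3α, and CHIR as an inhibitor of both GSK3α and GSK3β. The labels do not say whether the 3 libraries of a group came from separate cultures or clones, so the p-values measure the spread between these libraries, which may be technical.

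A cell enters mitosis when cyclin A and cyclin B bind the kinase Cdk1 and Cdc25 phosphatases remove its inhibitory phosphates. Polo and Aurora kinases then build the spindle with kinesin motors, the spindle checkpoint holds anaphase until the chromosomes are attached, and the anaphase-promoting complex ends mitosis by marking cyclin B and securin for destruction. The genes for these proteins are transcribed late in the cell cycle by B-Myb, the MuvB complex, FoxM1 and NF-Y, and their mRNA level in a population follows the share of cells in G2 and mitosis. Mouse embryonic stem cells divide fast and express these genes at high levels. In bulk libraries fewer cells of a kind and less RNA per cell cannot be told apart.

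The libraries held 17359422 to 20773337 counts, of which 0.648 to 0.717% fell on the 36 genes. Levels below are CPM, the usual depth-scaled counts, after TMM scaling, a correction for differences in composition. Libraries of the same group were not copies of each other (chi-square over its degrees of freedom 3.37 to 7.89 in 9 pairs). The 9 embryonic stem cell markers examined, Pou5f1, Sox2 and Nanog among them, had a summed level of 4123 to 4186 CPM in control, 4015 to 4183 with BRD0705 and 4242 to 4396 with CHIR. Against control, 0 of the 9 passed an adjusted p of 0.05 with BRD0705. With CHIR 2 passed, Esrrb and Klf4, both higher (log2 fold change 0.22 and 0.19, edgeR adjusted p 0.00734 and 0.0369). Klf4, Tdgf1 and Esrrb were lower with BRD0705 than with CHIR (-0.35, -0.21 and -0.15, edgeR adjusted p 0.00066, 0.0321 and 0.0474). The 12 markers of differentiated cells summed to 8.62 to 10.75 CPM over all libraries, and Hbb-y had 0 counts in every library. The 12 fibroblast markers, all of which were detected, summed to 2572 to 3099 CPM in control, 3259 to 3360 with BRD0705 and 2917 to 3462 with CHIR. All 12 had a log2 fold change above 0 under each inhibitor, and 2 of them, Col1a1 and Col5a1, passed the threshold under each. The part of the fibroblast markers in the results was not tested. Their mean log2 CPM, used below as a covariate, was 6.41 to 6.65 in control, 6.73 to 6.81 with BRD0705 and 6.55 to 6.805 with CHIR. The BRD0705 libraries all lay above the controls, so that fit cannot tell the part of the markers from that of BRD0705. A call lost in it does not show that the markers account for the call. Libraries also leaned to different degrees toward GC-rich transcripts: Spearman's rho with GC content, over genes, was -0.29 to 0.19 in control, 0.05 to 0.26 with BRD0705 and -0.12 to -0.05 with CHIR.

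The sequence upstream of these genes was examined for the letters bound by the regulators named above. NF-Y binds CCAAT, and the MuvB complex binds the cell cycle genes homology region (CHR), searched here as TTTGAA and in a second form that is read the same on both strands, TTCGAA. Matches on either strand were sought in the 250 bases before each RefSeq start (build GRCm38.p6), overlapping matches were each counted, and 30 of the 36 genes had a window. CCAAT was present in 26 of the 31 windows of these genes (83.87%), and in 33.85% of all 32851 promoter windows. At least 2 copies stood in 18 windows (58.06%, against 10.09% of all), and a CHR in 12 (38.71%, against 17.15% of all). Among other genes of mitosis, 53.33% of 75 windows held CCAAT and 34.67% a CHR, a share close to that of the 36 genes, and among S phase genes 64.52% of 31 windows held CCAAT and 16.13% a CHR. A match is a description of the letters and does not show that a factor binds. The windows printed belong to the 5 genes with a window that differed between groups below, and to Ube2c and Cdk1. The latter were added after their values were seen, as examples of genes that hold both motifs. Other genes of the 36 hold both too, among them Top2a with 4 CHR and 6 CCAAT matches. Capitals mark the matches, which appear reverse-complemented where they lie on the other strand.
Cenpf: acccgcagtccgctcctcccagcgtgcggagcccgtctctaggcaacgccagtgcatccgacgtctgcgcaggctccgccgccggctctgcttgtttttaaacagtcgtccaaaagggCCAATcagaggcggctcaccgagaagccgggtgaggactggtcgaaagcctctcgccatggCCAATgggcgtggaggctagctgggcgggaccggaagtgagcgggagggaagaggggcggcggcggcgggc
Kif20b: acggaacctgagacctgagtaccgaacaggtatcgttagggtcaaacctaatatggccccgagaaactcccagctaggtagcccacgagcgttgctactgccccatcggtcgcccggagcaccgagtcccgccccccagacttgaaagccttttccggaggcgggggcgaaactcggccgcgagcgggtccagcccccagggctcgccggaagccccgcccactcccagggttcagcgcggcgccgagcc
Kif23: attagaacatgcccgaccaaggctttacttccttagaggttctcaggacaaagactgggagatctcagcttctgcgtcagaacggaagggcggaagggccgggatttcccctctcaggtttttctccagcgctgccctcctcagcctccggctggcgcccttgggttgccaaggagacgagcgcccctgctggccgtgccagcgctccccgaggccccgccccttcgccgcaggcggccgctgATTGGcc
Birc5: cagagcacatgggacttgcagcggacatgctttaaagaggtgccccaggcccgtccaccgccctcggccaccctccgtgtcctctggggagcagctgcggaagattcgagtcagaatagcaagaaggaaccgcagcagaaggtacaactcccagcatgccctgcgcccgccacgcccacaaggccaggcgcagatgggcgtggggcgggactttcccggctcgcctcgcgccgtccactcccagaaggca
Hmmr: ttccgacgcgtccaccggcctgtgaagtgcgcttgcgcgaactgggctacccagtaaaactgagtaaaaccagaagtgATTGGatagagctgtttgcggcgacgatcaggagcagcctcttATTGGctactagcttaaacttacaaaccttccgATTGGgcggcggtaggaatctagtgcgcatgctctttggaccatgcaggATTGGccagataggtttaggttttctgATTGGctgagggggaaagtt
Ube2c: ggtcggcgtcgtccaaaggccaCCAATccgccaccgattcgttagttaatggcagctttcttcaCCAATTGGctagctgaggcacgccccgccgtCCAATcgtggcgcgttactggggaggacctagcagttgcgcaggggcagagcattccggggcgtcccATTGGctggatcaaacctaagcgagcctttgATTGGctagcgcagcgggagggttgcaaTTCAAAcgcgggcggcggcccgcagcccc
Cdk1: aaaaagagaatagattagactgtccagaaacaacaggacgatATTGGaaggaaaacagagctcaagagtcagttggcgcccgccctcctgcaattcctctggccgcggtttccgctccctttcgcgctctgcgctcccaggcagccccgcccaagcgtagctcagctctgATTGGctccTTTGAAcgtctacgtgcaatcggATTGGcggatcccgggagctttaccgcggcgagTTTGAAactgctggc
In the order printed, the windows lie at chr1:189688087-189688336 on the minus strand, chr19:34922108-34922357 on the plus strand, chr9:61946800-61947049 on the minus strand, chr11:117848987-117849236 on the plus strand, chr11:40733438-40733687 on the minus strand, chr2:164769679-164769928 on the plus strand and chr10:69352913-69353162 on the minus strand. Hmmr has 5 CCAAT motifs and Cenpf 2, Kif23 has 1 within 7 bases of the start, and the windows of Kif20b and Birc5 hold neither motif. Ube2c has 6 CCAAT matches, of which 2 overlap, and a CHR at position -29 from the start. Cdk1 has 3 CCAAT motifs and 2 CHR motifs. The 11 genes with a CHR and the 19 without one had median log2 fold changes of -0.12 and -0.13 under BRD0705, and of -0.09 and -0.07 under CHIR, a description with no test.

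All of these genes were expressed in every library. Per kilobase of canonical transcript, the highest level was that of Ube2c, the ubiquitin-conjugating enzyme of the anaphase-promoting complex, at 511 ± 34.1 CPM per kilobase (SD over 9 libraries). Top2a, the topoisomerase that untangles sister chromatids, followed at 151 ± 5.27, and then Plk1, the polo kinase, at 129 ± 8.97, and Ccna2, cyclin A2, at 128 ± 4.09 CPM per kilobase. Over the libraries the range of Plk1 overlapped those of Top2a, Ccna2 and Birc5, that of Top2a lay above those of Ccna2 and Birc5, and that of Ube2c lay above all others. The lowest levels were those of the Cdc25 phosphatases, Cdc25c at 8.03 ± 0.692 and Cdc25b at 2.71 ± 0.136 CPM per kilobase. The coefficient of variation of these genes over the 9 libraries had a median of 6% and a range of 3.21 to 9.51%. Over all tested rows the median was 9.99%. The rows were not matched for level: these genes stood between percentiles 50.02 (Cdc25c) and 99.13 (Top2a) of the tested rows. Whether they vary less than other genes of similar level was not tested. Around the group means the correlations between these genes spread to both sides of 0. The median over the 630 pairs of genes was -0.04 across 9 libraries (6 residual degrees of freedom), with quartiles of -0.34 and 0.38. This is a description with no test, and so few libraries cannot show that the genes do not move together.

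**Figure D1:**
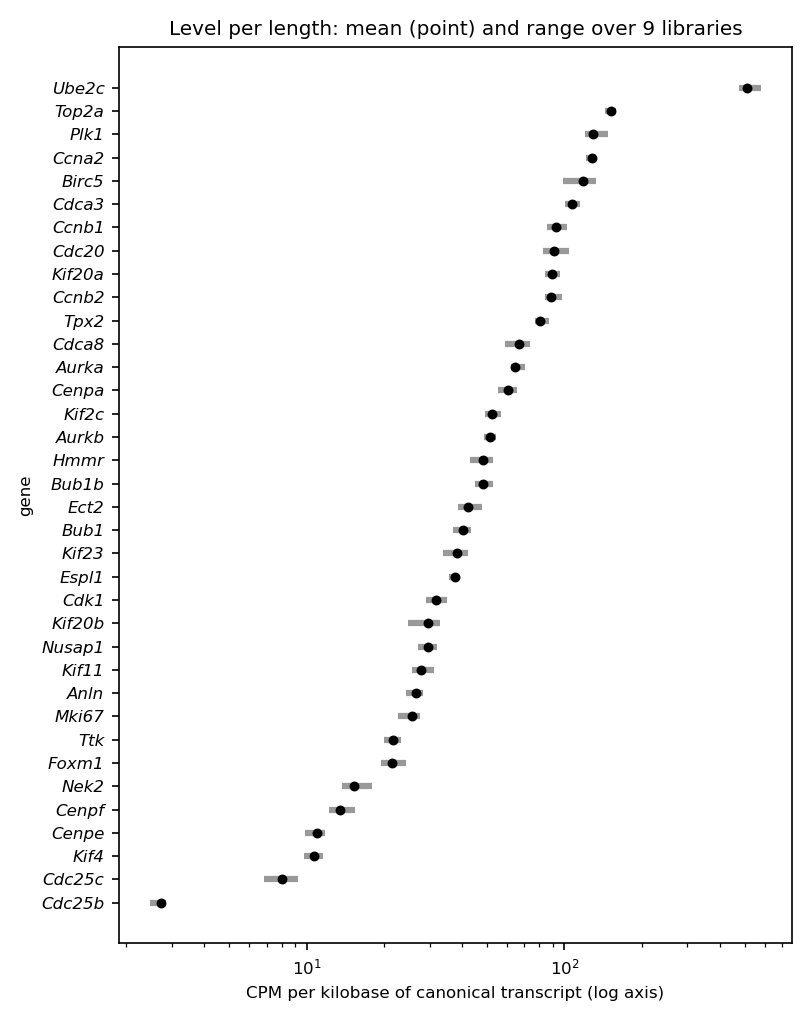
Level of each of the 36 genes in CPM per kilobase of canonical transcript on a log axis. Points are means over the 9 libraries and bars run from the lowest to the highest library; Ube2c stands highest and Cdc25b lowest.

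The first comparison asks how these transcripts stood after 30 min with the GSK3α-selective inhibitor. Of the 36 genes, 1 fell and 0 rose at an adjusted p under 0.05 (edgeR quasi-likelihood test, Benjamini-Hochberg adjustment over all 15366 rows), where 1.22% of all tested rows passed, 0.534% lower and 0.69% higher. By DESeq2, 3 fell and 1 rose of the 35 with an adjusted p, where 193 of all 7542 such rows fell and 291 rose. Below the level of single calls most values were below control: 29 of 36 had a log2 fold change below 0, against 51% of all tested rows, and their median was -0.12 against 0.00. Lower values with an unadjusted p under 0.05 numbered 18 and higher ones 1 (15.9% of all rows, 8.08% lower and 7.77% higher). The libraries of the groups did not overlap in 16 lower and 2 higher genes, against 20.2% of all rows, 10.4% lower and 9.83% higher. The mean log2 CPM over the 36 genes was 7.24 to 7.25 in the control libraries and 7.13 to 7.16 in the BRD0705 libraries. After correction for GC content and transcript length the median was -0.08 with 30 of 36 below 0. With the fibroblast marker level as a covariate it was -0.09 with 27 below 0, and no gene passed by edgeR (8 at an unadjusted p under 0.05).

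**Figure D2:**
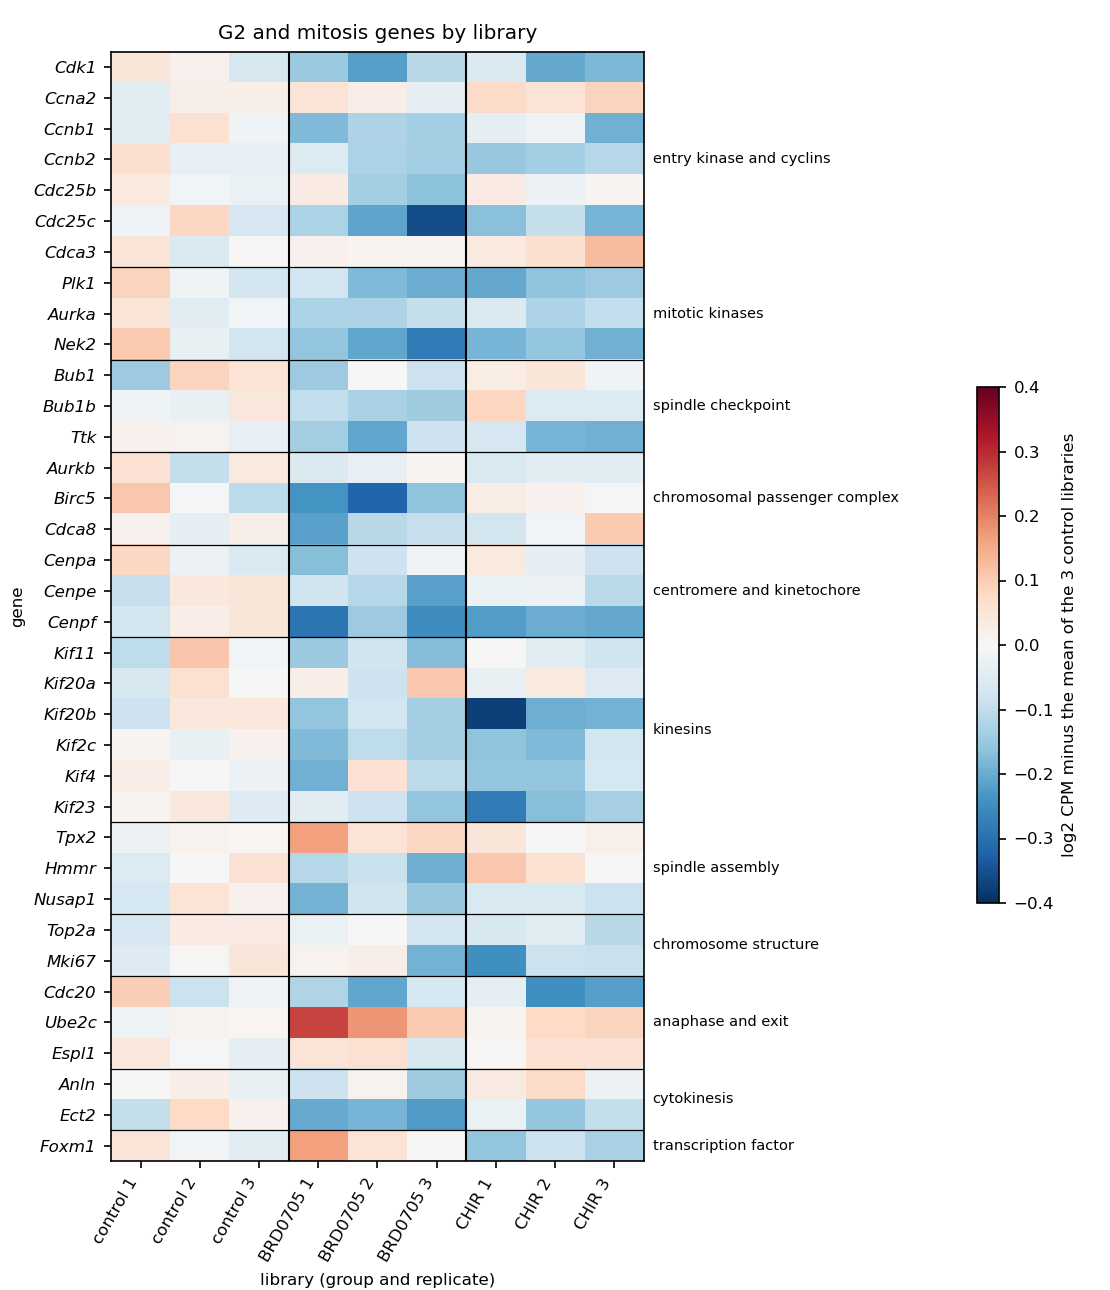
Log2 CPM of each gene in each library minus the mean of the 3 control libraries, with genes grouped by role and blue for lower values. Most rows are blue in the BRD0705 and CHIR columns, with Ube2c, Tpx2 and Foxm1 among the exceptions under BRD0705.

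The gene that fell under BRD0705 was Cenpf (chromosome 1, 189372752 to 189420315 on GRCm39), which encodes a large protein of the outer kinetochore. It stood at 159, 170.3 and 173 CPM in the control libraries, 136, 151 and 141 CPM with BRD0705 and 143, 146 and 145 CPM with CHIR. All 6 inhibitor libraries lay below the 3 control libraries. The log2 fold change was -0.23 ± 0.05 (SE) with BRD0705, adjusted p 0.0479, and -0.21 ± 0.05 with CHIR, adjusted p 0.0273 (edgeR quasi-likelihood test for both). The BRD0705 call is close to the threshold. In fits that left out 1 library it passed only without control replicate 1 (edgeR adjusted p 0.0288). Its edgeR adjusted p was 0.215 and 0.219 without control replicates 2 and 3, 0.256, 0.0686 and 0.0858 without BRD0705 replicates 1 to 3, and 0.0591, 0.0871 and 0.0587 without CHIR replicates 1 to 3. It was also lost with median-of-ratios scaling (0.0524), with library size only (0.0608), with the compared groups alone (0.0664) and with the fibroblast covariate (0.66, edgeR adjusted p each). The CHIR call was lost in 5 of the 9 fits: without control replicates 2 and 3 (edgeR adjusted p 0.117 and 0.144) and without CHIR replicates 1, 2 and 3 (0.0988, 0.0966 and 0.0768). It was also lost with the fibroblast covariate (-0.16, edgeR adjusted p 0.306). The other centromere genes, Cenpa, the centromeric histone H3 variant, and Cenpe, a kinetochore kinesin, had log2 fold changes of -0.09 and -0.14 with BRD0705 and -0.03 and -0.05 with CHIR, none past the threshold.

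**Figure D3:**
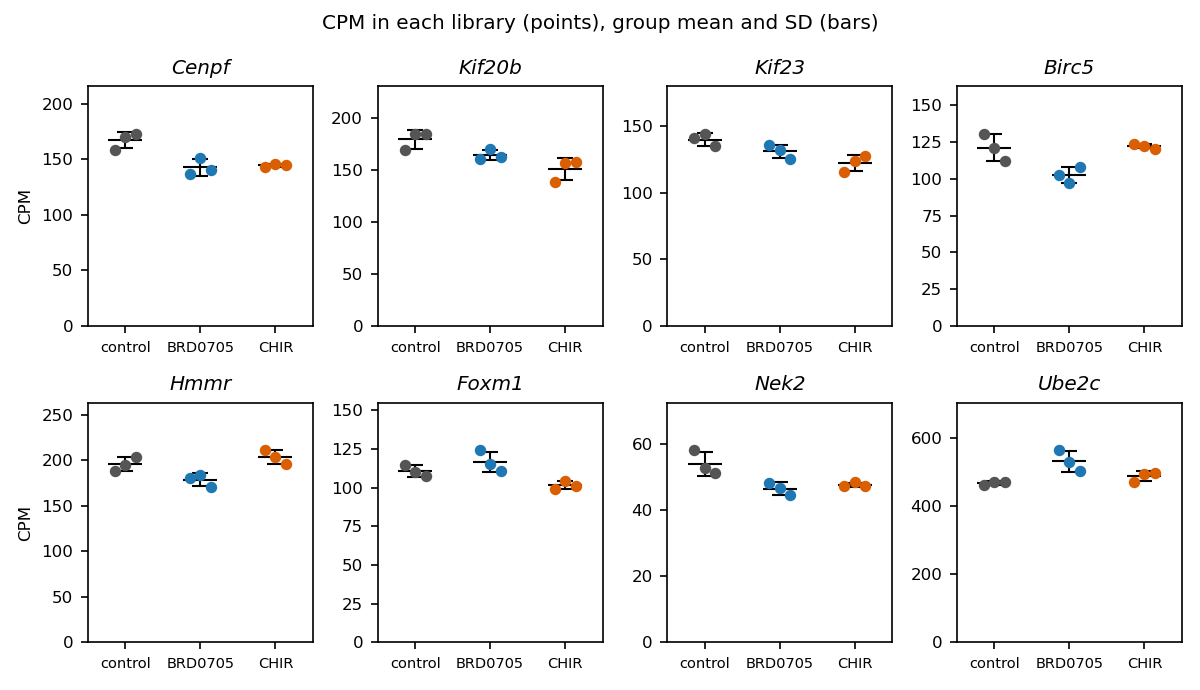
CPM of 8 genes in each library, with points for libraries and bars for the group mean and SD (n = 3 each), on axes that start at 0. Cenpf is lower in all inhibitor libraries, Kif20b and Kif23 are lowest with CHIR, and Birc5 and Hmmr are lowest with BRD0705.

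Entry into mitosis was represented by Cdk1, its cyclins and phosphatases, and Cdca3, a factor that promotes entry. None of the 7 passed the threshold under either inhibitor. Cdk1 itself stood at 154, 151 and 142 CPM in the control libraries, 134, 128 and 138 CPM with BRD0705 and 143, 129 and 132 CPM with CHIR. Every BRD0705 library lay below every control library, while CHIR replicate 1 lay inside the control range. Its log2 fold change was -0.16 with BRD0705 (95% interval -0.28 to -0.04, edgeR adjusted p 0.171) and -0.15 with CHIR (-0.27 to -0.03, edgeR adjusted p 0.14). The B-type cyclins Ccnb1 and Ccnb2 had values of -0.15 and -0.11 with BRD0705 and -0.08 and -0.14 with CHIR. Ccna2, which acts from S phase on, was at 0.01 and 0.07, and shares 714 exon bases with Exosc9 on the opposite strand. Cdc25c, with the fewest counts of the 36 genes, was at -0.23 with BRD0705, with a wide interval of -0.41 to -0.05. Cdc25b was at -0.09 and 0.01, and Cdca3 at 0.01 and 0.08, under BRD0705 and CHIR.

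The mitotic kinases Plk1, Aurka and Nek2, which act on centrosomes and spindle poles, were lower under both inhibitors in every library, but none passed the threshold. Nek2, which separates the centrosomes, stood at 57.97, 52.7 and 51.1 CPM in the control libraries, 48.3, 46.7 and 44.4 CPM with BRD0705 and 47.3, 48.3 and 47.2 CPM with CHIR. Its groups did not overlap in either comparison with control. The log2 fold changes were -0.22 ± 0.06 with BRD0705 and -0.18 ± 0.06 with CHIR (SE; edgeR adjusted p 0.0887 and 0.0933). Plk1 stood at 329, 306 and 294 CPM in the control libraries, 294, 274 and 269.5 CPM with BRD0705 and 269, 277 and 279 CPM with CHIR. The lowest control library of Plk1 was above the highest of each inhibitor by less than the SD of the controls, 17.8 CPM. Its edgeR adjusted p was 0.179 with BRD0705 and 0.0698 with CHIR, and with CHIR it passed in 1 alternative, library size only (0.0267), with an adjusted p of up to 0.266 in the others. Aurka, which shares exon bases with Cstf1 and Fam210b on the other strand, had log2 fold changes of -0.12 and -0.09. Of the checkpoint kinases, Ttk was at -0.14 and -0.15, Bub1 at -0.08 and 0.02, and Bub1b, the checkpoint protein BubR1, at -0.12 and -0.01, in the order BRD0705 and CHIR, with no call.

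The comparison of CHIR with control asks the same question for inhibition of both GSK3 enzymes. Of the 36 genes, 3 fell and 0 rose (edgeR quasi-likelihood test, adjusted over all rows), where 6.3% of all tested rows passed, 3.78% lower and 2.52% higher. DESeq2 also gave 3 lower, where 396 of all 12961 rows with an adjusted p fell and 467 rose. Log2 fold changes below 0 were seen in 25 of 36 genes, against 52.4% of all tested rows, with a median of -0.07 against -0.01. The unadjusted p was under 0.05 in 12 lower and 0 higher genes (20.5% of all rows, 11.5% lower and 8.96% higher). Groups did not overlap in 13 lower genes and 1 higher gene, against 25.1% of all rows, 14.1% lower and 10.9% higher. The mean log2 CPM over the 36 genes was 7.17 to 7.18 in the CHIR libraries. After GC and length correction the median of the 36 was -0.04 and that of all tested rows 0.04; the split of all calls then turned from 387 higher and 581 lower to 1006 higher and 532 lower, and with library size only it was 252 and 702. Both comparisons use the same control libraries, so their values are set side by side and are not independent.

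**Figure D4:**
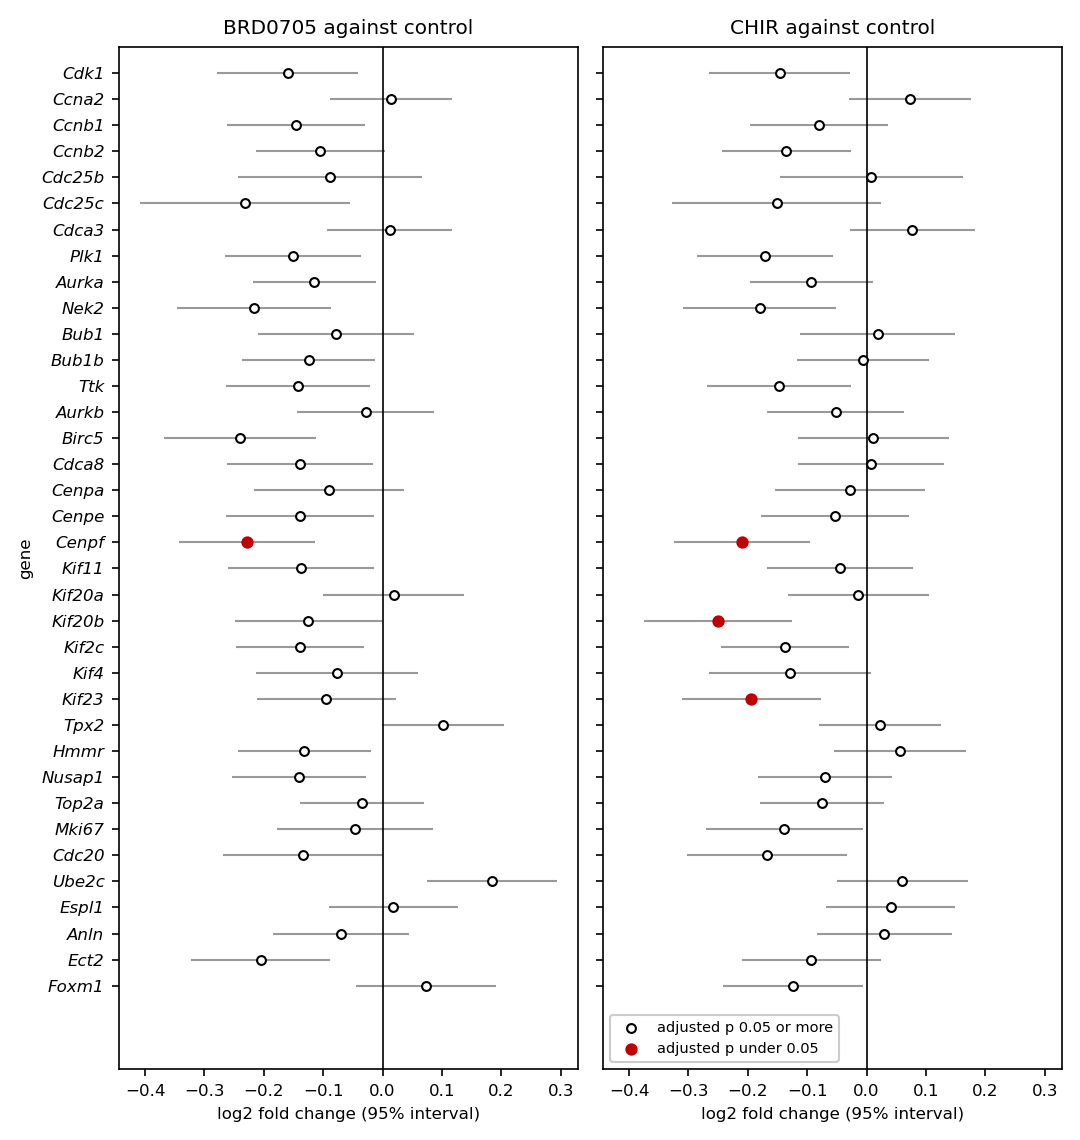
Log2 fold change of each gene against control with its 95% interval (horizontal axis), for BRD0705 at left and CHIR at right. Filled red points passed an adjusted p of 0.05: Cenpf under BRD0705, and Cenpf, Kif20b and Kif23 under CHIR.

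Besides Cenpf, the genes that fell under CHIR were kinesins. Kif20b (chromosome 19, 34899752 to 34953149), a motor of late mitosis and cytokinesis, stood at 169, 184 and 185 CPM in the control libraries, 161, 170.2 and 163 CPM with BRD0705 and 139, 157 and 157 CPM with CHIR. The 3 CHIR libraries were the lowest of the 9, and BRD0705 replicate 2 lay inside the control range. Its log2 fold change with CHIR was -0.25 ± 0.06 (SE; edgeR adjusted p 0.016), and -0.12 with BRD0705 (edgeR adjusted p 0.313). Without CHIR replicate 1, the lowest library, it was -0.18 (edgeR adjusted p 0.104), and the call was also lost without control replicates 2 and 3 (0.0896 and 0.0926) and with the fibroblast covariate (0.29).

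Kif23 (chromosome 9, 61823187 to 61854074), the motor of the centralspindlin complex at the spindle midzone, stood at 141, 144 and 135 CPM in the control libraries, 136, 132 and 126 CPM with BRD0705 and 115, 124 and 128 CPM with CHIR. All 3 CHIR libraries were below the control range. The log2 fold change with CHIR was -0.19 ± 0.06 (SE; edgeR adjusted p 0.0455). In fits that left out 1 library it passed only without BRD0705 replicate 3 (edgeR adjusted p 0.0458). It was 0.111, 0.179 and 0.0815 without control replicates 1 to 3, 0.0673 and 0.0764 without BRD0705 replicates 1 and 2, and 0.213, 0.127 and 0.0587 without CHIR replicates 1 to 3. GC and length correction moved it to -0.15 (edgeR adjusted p 0.0883), and the fibroblast covariate to -0.16 (0.333). The call was also lost with median-of-ratios scaling (edgeR adjusted p 0.0594) and with the compared groups alone (0.0557).

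The other kinesins did not pass. Kif2c, which takes apart microtubule ends at kinetochores, was at -0.14 and -0.14 under BRD0705 and CHIR, and Kif4, the chromokinesin, at -0.08 and -0.13. Kif11, the motor that pushes the spindle poles apart, was at -0.14 and -0.05. Kif20a, which brings the passenger complex to the midzone, was at 0.02 and -0.01; 2748 of its exon bases lie opposite Cdc23, and strand use in the counting is not given in the sources used here, so its counts are uncertain. In all, 14 of the 36 genes share exon bases with a counted gene on the opposite strand in GENCODE vM39, and 1, Foxm1, with a counted gene on its own strand. The chromosome genes Top2a and Mki67, the proliferation marker that coats mitotic chromosomes, had log2 fold changes of -0.04 and -0.05 with BRD0705 and -0.08 and -0.14 with CHIR.

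A few genes had values above control under BRD0705. Ube2c, which passes ubiquitin to substrates of the anaphase-promoting complex, stood at 459.7, 471 and 469 CPM in the control libraries, 562, 527 and 501 CPM with BRD0705 and 470.0, 493 and 496 CPM with CHIR. The BRD0705 libraries were the 3 highest of the 9, and all lay above the control range. The log2 fold change was 0.18 ± 0.05 with BRD0705 (SE; edgeR adjusted p 0.0867) and 0.06 with CHIR (edgeR adjusted p 0.575), so it missed the threshold in both. By DESeq2 the BRD0705 value was 0.19 with an adjusted p of 0.00831, and with GC and length correction 0.25 with an edgeR adjusted p of 0.0343. It also passed with no filter on low counts (edgeR adjusted p 0.0437) and without BRD0705 replicate 3 (0.0336), and in no other alternative without the replicate block; the highest adjusted p was 0.564, with the fibroblast covariate. Tpx2, which activates Aurora A on spindle microtubules, was at 0.10 with BRD0705, with no overlap between the groups and an edgeR adjusted p of 0.322; with CHIR it was at 0.02. Nusap1, which bundles spindle microtubules, was on the other side of 0, at -0.14 and -0.07 under BRD0705 and CHIR. Cdc20, the activator of the anaphase-promoting complex, was at -0.13 and -0.17 under BRD0705 and CHIR, and Espl1, the separase that cuts cohesin, at 0.02 and 0.04, none past the threshold.

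Of the genes of cytokinesis, Ect2, the exchange factor that activates RhoA at the cleavage site, stood at 171, 193 and 185 CPM in the control libraries, 159, 161 and 156 CPM with BRD0705 and 179, 164 and 171 CPM with CHIR. The BRD0705 libraries were the 3 lowest of the 9, and the CHIR libraries overlapped the controls. The log2 fold change with BRD0705 was -0.21 ± 0.06 (SE), with an edgeR adjusted p of 0.0757 and a DESeq2 adjusted p of 0.019; without control replicate 1 the edgeR adjusted p was 0.0344, and with no filter 0.037. It passed in no other alternative, and the adjusted p reached 0.771 with the fibroblast covariate. Anln, the actin-binding anillin of the contractile ring, was at -0.07 and 0.03 under BRD0705 and CHIR, neither past the threshold.

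The inhibitors were also compared directly, as 1 pair at doses the labels do not give. Of the 36 genes, 2 were lower and 1 was higher with BRD0705 than with CHIR (edgeR quasi-likelihood test, adjusted over all rows), where 7.77% of all tested rows passed, 2.97% lower and 4.8% higher. An unadjusted p under 0.05 was found in 4 lower and 3 higher genes (22.5% of all rows, 10.5% and 12%), and groups without overlap in 7 lower and 4 higher (26.7% of all rows, 12.9% and 13.7%). The share of the 36 genes was thus near that of all rows. With GC and length correction the split over all rows turned from 738 higher and 456 lower to 480 and 988, and with library size only it was 912 and 239. Under GC and length correction Bub1b and Espl1 were lower with BRD0705, at -0.18 and -0.16 (edgeR adjusted p 0.039 and 0.0301). That correction also moved the median log2 difference of all tested rows from 0.00 to -0.04. The median of the 36 genes moved from -0.02 to -0.05. Values of single genes under this correction are to be read beside that shift.

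Birc5 (chromosome 11, 117740040 to 117746581), or survivin, the subunit that brings the chromosomal passenger complex to centromeres, was lower with BRD0705. It stood at 131, 121 and 112 CPM in the control libraries, 102, 97.1 and 108 CPM with BRD0705 and 124, 122 and 121 CPM with CHIR. The BRD0705 libraries were the 3 lowest, and the CHIR libraries lay inside the control range. The log2 difference, BRD0705 minus CHIR, was -0.25 ± 0.06 (SE; edgeR adjusted p 0.0165). Against control it was -0.24 with BRD0705 (edgeR adjusted p 0.0581) and 0.01 with CHIR (95% interval -0.12 to 0.14). The BRD0705 value against control passed in 3 of the alternatives, DESeq2 (adjusted p 0.0113), no filter (edgeR adjusted p 0.0112) and without BRD0705 replicate 3 (0.042), and in none of the others, where the adjusted p reached 0.427 with the fibroblast covariate. The difference between inhibitors passed under each of the 10 alternatives other than leaving out single libraries, with log2 values of -0.27 to -0.22. Leaving out single libraries ended the call in 4 of 9 fits, with edgeR adjusted p values of 0.0535 and 0.0784 without BRD0705 replicates 1 and 2, and 0.0533 and 0.06 without CHIR replicates 1 and 2. Its partners in the complex had differences of -0.15 for Cdca8, or borealin (edgeR adjusted p 0.142), and 0.02 for the kinase Aurkb (95% interval -0.09 to 0.14). Against control Cdca8 was at -0.14 with BRD0705 and 0.01 with CHIR, and Aurkb at -0.03 and -0.05, none past the threshold.

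Hmmr (chromosome 11, 40592167 to 40624288), which encodes a spindle pole protein that is also a hyaluronan receptor, was the other gene lower with BRD0705 than with CHIR. It stood at 188, 195 and 204 CPM in the control libraries, 181, 184 and 171 CPM with BRD0705 and 211, 204 and 196 CPM with CHIR. The highest BRD0705 library was below the lowest CHIR library. The log2 difference was -0.19 ± 0.05 (SE; edgeR adjusted p 0.0369). With library size only and with GC and length correction the edgeR adjusted p was 0.0982 and 0.0612, and 0.0555 with the fibroblast covariate. It was lost without control replicate 2 (0.0509), BRD0705 replicates 1, 2 and 3 (0.0767, 0.0571 and 0.114) and CHIR replicates 1 and 2 (0.138 and 0.103).

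Foxm1 (chromosome 6, 128339518 to 128353147), a transcription factor gene whose product drives many genes of this group, was higher with BRD0705 than with CHIR. It stood at 115, 109.9 and 108 CPM in the control libraries, 124, 115 and 111 CPM with BRD0705 and 99.4, 104 and 101 CPM with CHIR. The lowest BRD0705 library was above the highest CHIR library, and the controls lay above the CHIR libraries and overlapped the BRD0705 range. The log2 difference was 0.20 ± 0.06 (SE; edgeR adjusted p 0.0381), with 0.07 and -0.12 for BRD0705 and CHIR against control. This call depended on the processing. Foxm1 had the highest GC content of the 36 genes, 56.2%, and with GC and length correction its difference was 0.07 (edgeR adjusted p 0.394; 0.0727 with the fibroblast covariate). When single libraries were left out it held only without control replicate 1 (0.0386) and BRD0705 replicate 3 (0.0275). Its edgeR adjusted p was 0.0512 and 0.0511 without control replicates 2 and 3, 0.209 and 0.0828 without BRD0705 replicates 1 and 2, and 0.131, 0.0816 and 0.098 without CHIR replicates 1 to 3. It also shares 382 exon bases with Rhno1 on the opposite strand. Across the 36 genes the Spearman correlation between GC content and log2 fold change was 0.18 for BRD0705 against control, 0.05 for CHIR and 0.19 for BRD0705 against CHIR, where all tested rows gave 0.27, -0.01 and 0.22; the genes share the same libraries, and these are descriptions.

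For the remaining 33 genes the direct comparison gave no call, which does not show that the inhibitors act alike on them. The inhibitors stood closest in Kif2c, with a 95% interval of the log2 difference of -0.11 to 0.11, in Ttk (-0.12 to 0.13) and in Cdk1 (-0.13 to 0.11). Cenpf, lower under both, was at -0.02 (-0.13 to 0.10). Kif20b was at 0.13 (0.00 to 0.25; edgeR adjusted p 0.219), with no overlap between the libraries of the inhibitors, so its lower value with CHIR was not separated from BRD0705 at the threshold. Kif23 was at 0.10 (-0.02 to 0.22) and Ube2c at 0.12 (0.01 to 0.23).

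Other genes of mitosis, from a list of 78 that holds none of the 36, were read from the same fit. With BRD0705 3 fell and 0 rose, where 0.534% of all tested rows fell and 0.69% rose. The 3 were Cks2, a Cdk1-binding subunit (-0.49 ± 0.09, SE), Arhgap11a (-0.28 ± 0.07) and Sgo1, the shugoshin that protects centromeric cohesin (-0.23 ± 0.05). Their edgeR adjusted p values were 0.0161, 0.047 and 0.047. Cks2 varied between libraries, at 49.6 ± 7.36 CPM in control and 35.4 ± 3.51 CPM in BRD0705 libraries (SD, n = 3 each). DESeq2 gave 6 lower and 2 higher of 74, where 193 of all 7542 rows with an adjusted p fell and 291 rose. In this list 66 of 78 genes had a log2 fold change below 0, against 51% of all tested rows, with a median of -0.10. With CHIR 8 fell and 3 rose, where 3.78% of all tested rows fell and 2.52% rose. There DESeq2 gave 8 lower and 5 higher of 78, where 396 of all 12961 rows with an adjusted p fell and 467 rose. By edgeR the lowest adjusted p was that of Kif14, a cytokinesis kinesin. Its mean fell by 0.40 ± 0.06 (SE) on the log2 scale (edgeR adjusted p 0.000584), with 36.7 ± 1.28 CPM in control and 27.8 ± 0.309 CPM in CHIR libraries (SD, n = 3 each). Also with CHIR, Depdc1b fell by 0.47 and the histone H3 kinase gene Haspin by 0.24 on the log2 scale (edgeR adjusted p 0.0121 and 0.0145). Nsl1, a kinetochore subunit, rose by 0.40 on that scale (edgeR adjusted p 0.0121). Levels of Depdc1b were low, at 13.1 ± 1.13 CPM in control and 9.47 ± 1.18 CPM in CHIR libraries (SD, n = 3 each). Those of Nsl1 were 15.8 ± 0.418 CPM in control and 20.7 ± 2.41 CPM with CHIR. With CHIR 49 of 78 were below 0, against 52.4% of all tested rows, with a median of -0.03.

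S phase genes served as a list from another stage of the cycle. Of the 32, 0 passed with BRD0705 by edgeR (unadjusted p under 0.05 in 3 higher and 1 lower; DESeq2 gave 1 higher), with 19 below 0 and a median log2 fold change of -0.02. With CHIR 1 fell, the replication initiation gene Mcm10 (-0.24 ± 0.05 SE, edgeR adjusted p 0.00759), with 13 below 0 and a median of 0.01. Of 21 tested regulators from the MuvB, B-Myb, E2F and NF-Y families, 1 rose with BRD0705, the MuvB subunit Lin37 (0.39 ± 0.07 SE, edgeR adjusted p 0.0125), and 1 fell with CHIR, E2f2 (-0.42 ± 0.08 SE, edgeR adjusted p 0.00484). The median of this list was 0.09 with BRD0705 and 0.04 with CHIR. Of all tested rows 1.22% passed with BRD0705 and 6.3% with CHIR, and 51% and 52.4% were below 0. E2f2 differed by 0.57 ± 0.08 (SE, log2; edgeR adjusted p 0.000319) between the inhibitors, from means of 26.02 ± 0.611 CPM under BRD0705 and 17.5 ± 1.61 under CHIR (SD, n = 3). In that comparison 4 of the 21 regulators were higher with BRD0705 and 0 lower, and 2 of the 32 S phase genes were higher and 0 lower. Of the 78 mitosis genes 4 were higher and 5 lower, where all rows had 4.8% higher and 2.97% lower. By DESeq2 the regulators had 4 higher and 1 lower of 21, and the S phase genes 2 higher and 0 lower of 32. The mitosis genes then had 2 higher and 5 lower of 78. Of all 12468 rows with an adjusted p, 544 were higher and 488 lower. After E2f2 the lowest adjusted p values were those of Nsl1 (-0.54), E2f8 (0.27) and Cdca5 (-0.23), at 0.00133, 0.00795 and 0.0148 (edgeR). Values of single genes in these other lists are given from the main fit only. The lists were not tested against each other.

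**Figure D5:**
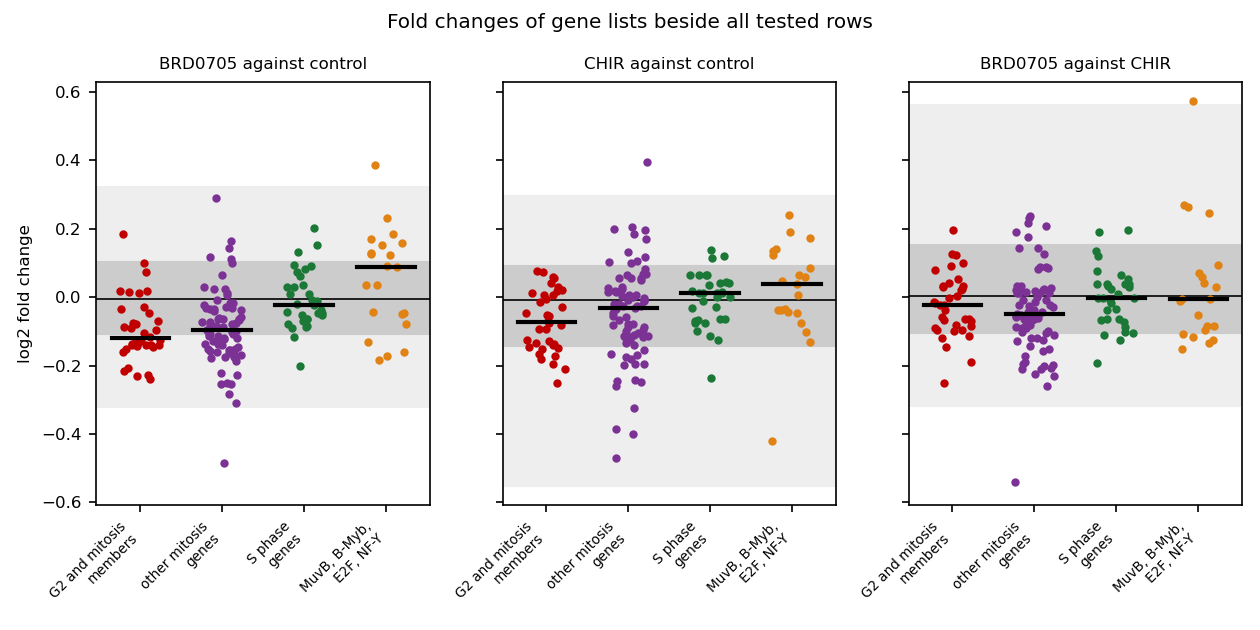
Log2 fold changes (vertical axis) of the 36 genes and 3 other lists in each comparison; points are genes and thick bars list medians. Dark and light bands hold the middle 50% and 90% of all 15366 tested rows, and all of the 36 genes lie within the light band.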

How the data were processed

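RNA sequencing counts were analysed for 9 libraries in 3 groups of 3, grouped and numbered from the library names in the labels. The deposited table holds whole-number read counts for 52264 gene symbols. The submitters' processing notes name RSEM, DESeq2 and the build mm10 with no role; the counter and strand use are not given in the sources used here, and the counts may be rounded estimates. Per the labels, the kit removed ribosomal RNA, yet the molecule is given as polyA. A normalized table of the same libraries was not used here.

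The main test was edgeR's quasi-likelihood test (edgeR 4.0.16, R 4.3.3) after TMM scaling and filterByExpr (minimum count 10), in 1 fit of all 9 libraries (6 residual degrees of freedom, common dispersion 0.00356). The threshold was an adjusted p of 0.05 (Benjamini-Hochberg, 15366 rows, 2-sided). Standard errors were derived from F and the fold change, and 95% intervals from the test's degrees of freedom; no p was adjusted over the 36 genes alone. The functions were tested on simulated data. Depth was 17359422 to 20773337 counts per library.

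The 36 genes, the other lists and the naming rule (all 36, and up to 4 genes per comparison of the other lists with the lowest adjusted p) were chosen with earlier results of these data known. Positions, lengths and GC content of the canonical transcripts came from GENCODE vM39 on GRCm39, matched by symbol (98% of tested rows), and promoter windows from RefSeq on GRCm38.p6. Reads shared with pseudogenes were not examined. Alternatives were a block on replicate number, DESeq2 1.42.0, median-of-ratios scaling, library size only, 2 other filters, only the groups compared, a correction for GC content and length (splines, 5 degrees of freedom for each) with and without the block, the mean log2 CPM of 12 fibroblast markers as a covariate, and leaving out each library in turn.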

Additional observations from a re-analysis of the deposited data

How the results depend on the processing

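Counts of calls among the 36 genes were small and moved with the processing. For BRD0705 against control, the 1 call became 4 with DESeq2 and with no filter on low counts, 2 with GC and length correction with or without the replicate block, and 0 with median-of-ratios scaling, library size only, the compared groups alone and the fibroblast covariate (edgeR; 19, 18, 20 and 8 genes at an unadjusted p under 0.05). For CHIR against control the fibroblast covariate took 3 calls to 0 (10 at an unadjusted p under 0.05), and for BRD0705 against CHIR it took 3 to 1. Leaving out 1 library gave 0 to 2, 0 to 3 and 0 to 3 calls. Over all rows, BRD0705 against control gave 188 calls of 15366 rows, 484 of 7542 with DESeq2 and 609 of 26762 with no filter. It gave 109 and 103 of 15366 with GC and length correction without and with the replicate block. Median-of-ratios scaling, library size only and the compared groups alone gave 207, 226 and 183 calls. There 2435 of 15366, 2378 of 15366 and 2400 of 15175 rows had an unadjusted p under 0.05 (edgeR). With the fibroblast covariate 0 rows passed (edgeR; 1199 of 15366 at an unadjusted p under 0.05). CHIR against control gave 968, and 1538 and 1516 with GC and length correction without and with the block, and 245 with the covariate. BRD0705 against CHIR gave 1194. Leaving out 1 library gave 21 to 305, 514 to 1070 and 616 to 1313 calls. The cause of these moves was not tested. With the replicate block alone the 36 genes had 1, 2 and 3 calls and all rows 222, 973 and 1177. Same-numbered libraries had a mean correlation of -0.00118 (range -0.09 to 0.08 over 9 pairs), and differently numbered ones 0.000622 (-0.12 to 0.13 over 18 pairs). These values gave no sign of pairing by number, but they do not show that the libraries were unpaired. Under the block Kif23 missed the threshold with CHIR (edgeR adjusted p 0.0572), and with GC and length correction and the block Cdca8 passed between the inhibitors (0.0399). Of 2051 single-gene fits under alternatives, 60 lost a call, 17 gained one and 0 reversed one, while 83 changed sign where the gene passed in neither fit. Each of the 36 genes had at least 262 counts in every library.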
